A study of Sus scrofa with 48 samples.

Results

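OAZ3 and the other polyamine genes measured in whole blood were the antizyme gene OAZ3, the related antizyme genes OAZ1 and OAZ2, the antizyme inhibitor gene AZIN1, and the enzyme genes ODC1, AMD1, SRM, SMS and SAT1. They were chosen by name, as the spots of the array whose gene name was one of these 9 symbols and which were kept in the log2 table that the authors deposited. This gave 31 retained spots of the 33 spots on the array with these names, among 37113 retained spots in all. The mean of the spots of 1 gene name was taken as the gene value, so that the 9 members stood among 27742 gene values. OAZ3 was picked for its difference between the lines, and that difference is therefore given as a description with no test. The comparison made here was whether the other 8 members differed between the lines as OAZ3 did.

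The pigs were 48 castrated males of the French Large White breed, aged 132 days, from 2 lines selected in opposite directions for residual feed intake (RFI), the part of feed intake not predicted from growth and maintenance. The low RFI line (RFIneg) and the high RFI line (RFIpl) had 24 pigs each, with 12 per line fed a high-fat, high-fibre diet (HF) and 12 a low-fat, low-fibre diet (LF), all fed freely. RNA of whole blood taken at exsanguination was labelled with Cy3 and hybridized to 1 single-colour array per pig. Each of 6 slides held 8 arrays, 2 of each of the 4 groups. Each line is a single selected population, so that selection and chance drift between the lines cannot be told apart, and kinship among the pigs is not given in the sources used here, so that P-values measure the spread between these pigs. A level below is a log2 intensity centred on the median of its array, and a line difference is low RFI minus high RFI on that scale. It is also written as a fold change (FC), the ratio of low RFI to high RFI, inverted with a minus sign where it is under 1. In whole blood, a lower share of a cell type and less RNA per cell cannot be told apart.

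Polyamines are small positively charged molecules that bind nucleic acids and are needed for translation and cell growth. ODC1 encodes ornithine decarboxylase, which makes putrescine, and the aminopropyl groups released through adenosylmethionine decarboxylase (AMD1) are added by spermidine synthase (SRM) and then spermine synthase (SMS). SAT1 encodes the acetyltransferase that opens the way back and out of the cell. Antizymes bind ornithine decarboxylase, direct it to the proteasome without ubiquitin and reduce polyamine uptake, and their own synthesis depends on a ribosomal frameshift that polyamines favour. OAZ1 and OAZ2 are made in most tissues, whereas OAZ3 is known from haploid male germ cells. AZIN1 resembles ornithine decarboxylase without its activity and binds antizymes in its place.

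The 3 retained OAZ3 spots carried 2 sequences. They are shown because both OAZ3 sequences were read in every pig and the size of the line difference depended on which was read. Spots A_72_P437459 and O3277 held the same 60 bases, written in capitals to mark that 2 spots share them. Spot A_72_P619999 held another stretch of the same design record and shared no run of at least 25 bases with them. The last sequence is that of A_72_P008606, a probe with no gene name in the files whose values were the most like those of OAZ3, as described further on.
OAZ3, A_72_P437459 and O3277: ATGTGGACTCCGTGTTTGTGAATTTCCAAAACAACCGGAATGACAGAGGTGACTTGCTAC
OAZ3, A_72_P619999: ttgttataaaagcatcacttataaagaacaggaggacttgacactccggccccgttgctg
Unnamed, A_72_P008606: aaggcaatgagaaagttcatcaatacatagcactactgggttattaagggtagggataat

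The OAZ1 sequences are shown because OAZ1 had the lowest unadjusted P for line among the other members, with all of its 6 spots on the side opposite to OAZ3. A_72_P059181 and A_72_P561364 overlapped by 47 bases, in capitals, and so read nearly the same piece of RNA. Among the spots of the other 8 members O502 alone passed the test for line, a test not given for OAZ3. A_72_P690027 had the largest difference among the OAZ1 spots.
OAZ1, A_72_P059181: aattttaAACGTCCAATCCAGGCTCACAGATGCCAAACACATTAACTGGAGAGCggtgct
OAZ1, A_72_P561364: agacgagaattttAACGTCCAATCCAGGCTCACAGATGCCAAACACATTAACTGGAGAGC
OAZ1, A_72_P690027: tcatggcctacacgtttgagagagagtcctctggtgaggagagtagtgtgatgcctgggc
OAZ1, O502: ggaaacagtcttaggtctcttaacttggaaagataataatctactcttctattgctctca

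OAZ3 was lower in the blood of low RFI pigs than of high RFI pigs, on both diets and with every spot. In low RFI pigs the OAZ3 gene value had its lowest value at -2.62, its median at -2.12 and its highest value at 0.13 (mean -1.48, SD 1.06, n = 24). In high RFI pigs these values were -2.46, 0.48 and 0.83 (mean 0.13, SD 0.86, n = 24). The lines overlapped, but all 24 low RFI pigs were under the high RFI median. The line difference was -1.61 (SE 0.27), an FC of -3.05, and it was -1.61 under the HF diet and -1.61 under the LF diet. Within the 6 slides the difference ranged from -2.41 to -0.56, and it was negative on 6 of 6. The spread between pigs of 1 group, an SD of 0.99, was larger than that of 99.4% of all gene values.

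That spread came from separate bands of pigs. Between -1.90 and -0.36 there was no pig. Below this gap lay 18 pigs, of which 16 were low RFI and 2 were high RFI. Above it lay 30 pigs, of which 8 were low RFI and 22 were high RFI. The lower band was split evenly by diet, with 8 low RFI pigs on each diet and 1 high RFI pig on each diet. Its pigs were found on every slide, from 1 to 5 per slide, and both high RFI pigs of the band were on the same slide. The next largest gap, from 0.19 to 0.48, divided the upper band into 17 pigs, 8 of them low RFI and 9 high RFI, and 13 pigs that were all high RFI. The SD within these 3 bands was 0.17, 0.16 and 0.12.

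**Figure D1:**
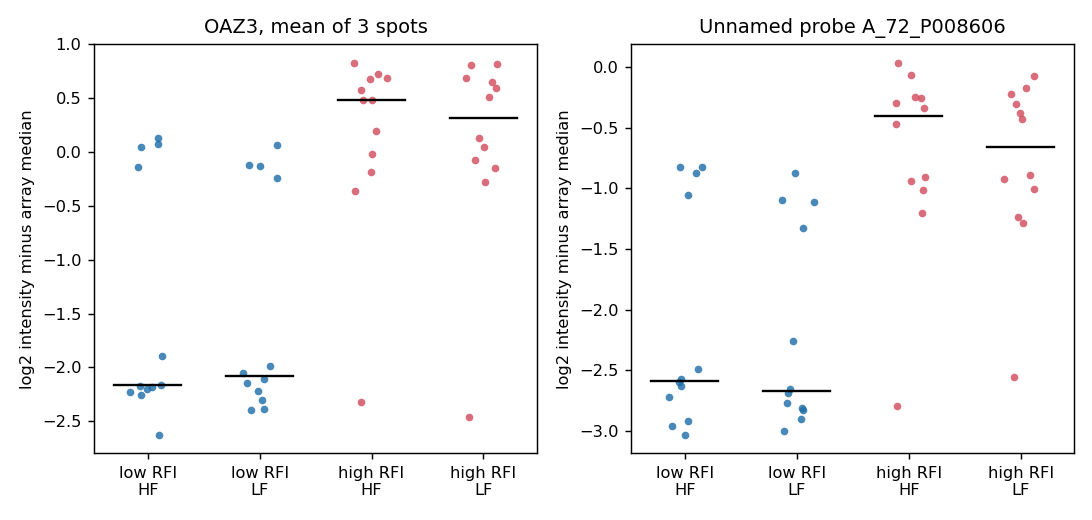
Level of OAZ3 (left, mean of 3 spots) and of the unnamed probe A_72_P008606 (right) in each pig, as log2 intensity minus the array median, by line and diet. Each point is 1 pig (12 per group) and each bar a group median. In both panels 16 low RFI pigs and 2 high RFI pigs lie in a lower band, below a gap that holds no pig.

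Each OAZ3 spot had its largest gap between the same numbers of pigs, 18 below and 30 above, although over a different span. The second gap, with 13 pigs above it, was the second largest for O3277 only, and for A_72_P437459 and A_72_P619999 the second largest gap lay lower, with 31 and 40 pigs above it. The spots of identical sequence, A_72_P437459 and O3277, had line differences of -2.0 and -2.0, and the values of 1 pig differed between them with an SD of 0.16 over 48 arrays, which gives the error of reading 1 sequence at 2 places. A_72_P619999 had a line difference of -0.83. Its largest gap, from -1.26 to -1.04, was narrower, and it separated 18 pigs of which 16 were low RFI and 2 high RFI, as did the widest gaps of the other spots. The spots were well above background on 48 arrays for A_72_P437459 and A_72_P619999, and on 23 low RFI and 24 high RFI arrays for O3277. No local background had been subtracted from these values. With the background-corrected signal the line difference was -2.08, compared with -1.39 after normexp correction and quantile normalization.

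Some markers of white cells were on the same side as OAZ3. The B cell markers MS4A1, at -0.36 (SE 0.07, adjusted P of 0.0013), and BLNK, at -0.23 (SE 0.06, adjusted P of 0.025), were called lower in low RFI pigs by limma, while CD79A, at -0.14 (SE 0.08), and CD79B, at -0.19 (SE 0.10), were not called. Of 7 monocyte markers 2 were called lower (CD14 at -0.47 and CHIT1 at -1.07) and 3 had a positive difference that was not called (CSF1R, CD68 and FCGR1A, from 0.01 to 0.09), with mean levels of -0.51 to 0.63 in low RFI and -0.14 to 1.12 in high RFI pigs. Of 6 measured neutrophil markers 1 was called lower (CXCR2 at -0.42) and 2 had a positive difference that was not called (MMP9 at 0.17 and LTF at 0.08), with mean levels of 2.01 to 5.003 in low RFI and 2.63 to 5.43 in high RFI pigs. No retained spot bore the names PAX5 of B cells or CSF3R, FPR1, MPO and CD177 of neutrophils. Over all gene values 2.77% were called for line, and under the 14 alternatives and the 48 fits without 1 pig the calls of MS4A1 and CHIT1 were kept. The call of CD14 was lost under 4 alternatives (adjusted P of 0.053 to 0.10) and without any 1 of 21 pigs. That of CXCR2 was lost under 3 alternatives (0.055 to 0.82), with a difference of -0.26 in place of -0.42 where the column of 1 pig was used as deposited, and without any 1 of 27 pigs. That of BLNK was lost under 3 alternatives (0.075 to 0.11) and in none of the 48 fits. The part of these cells in the OAZ3 values was not tested.

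Diet and OAZ3 showed no relation that passed a test. The difference between HF and LF was 0.04 (SE 0.27), with an adjusted P of 1 in limma, and 13 of 24 HF pigs were above the LF median. The 95% interval of this difference ran from -0.51 to 0.59. The interaction of line and diet was -0.01 (SE 0.55), with an adjusted P of 0.998 in limma.

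The other antizymes did not take the pattern of OAZ3. In OAZ1, the gene of the main antizyme of most cells, the values of low RFI pigs had their lowest at 7.68, their median at 8.22 and their highest at 8.81 (mean 8.22, SD 0.31, n = 24). The values of high RFI pigs were 7.49, 7.98 and 8.42 (mean 7.995, SD 0.22, n = 24). The lines overlapped widely, with 18 of 24 low RFI pigs above the high RFI median. The difference was 0.23 (SE 0.08, FC 1.17), opposite in sign to that of OAZ3, with an unadjusted P of 0.0045 and an adjusted P of 0.11 in limma, which did not pass an adjusted P of 0.05. The difference lay between 0.18 and 0.33 in the 6 OAZ1 spots, was positive on 6 of 6 slides and kept its sign in each alternative. Its adjusted P was 0.05 after quantile normalization, just over the threshold, and 0.059 to 0.171 when each pig was left out in turn. The difference was 0.10 (SE 0.11) under the HF diet and 0.35 (SE 0.11) under the LF diet, and the interaction of -0.25 (SE 0.15) had an adjusted P of 0.89. Among the spots, O502 alone passed, with a difference of 0.22 (SE 0.06) and an adjusted P of 0.021 in limma.

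Markers of red cell precursors and of T cells lay mostly on the same side as OAZ1. Of the red cell precursor markers listed, 12 were measured, and 11 of these had a positive line difference. The median of the 12 was 0.11, compared with 0.02 over all gene values. SLC4A1, which encodes the anion exchanger of the red cell membrane, was the only one called (2.77% of all gene values were), at 0.26 (SE 0.07) with an adjusted P of 0.047 in limma. This call was lost under 6 of 14 alternatives and in 33 of 48 fits without 1 pig, and with the brightest spot the difference was -0.08 (adjusted P of 0.95). The mean level of the 12 markers in single pigs ranged from 1.92 to 3.32 in low RFI pigs and from 1.67 to 3.23 in high RFI pigs, and HBB and AHSP were among the measured ones. No retained spot bore the names GYPC or HBM. Of 8 T cell markers, 7 had a positive difference, and the median of the 8 was 0.15. Of these 8, 3 had an unadjusted P under 0.05 in limma (11.6% of all gene values did). Only 1 was called, LCK at 0.21 (SE 0.06) with an adjusted P of 0.040 in limma. The LCK call was lost under 5 of the 14 alternatives, with an adjusted P of 0.055 to 0.41, and in 23 of 48 fits without 1 pig. The mean level of the 8 ranged from 1.60 to 2.098 in low RFI and from 1.44 to 2.36 in high RFI pigs. The part of these cells in the OAZ1 values was not tested. Because OAZ3 is known from germ cells, a list of 23 male germ cell genes was also read, of which 7 were measured. None of the 7 was called for line by limma (2.77% of all gene values were), and none had an unadjusted P under 0.05 (11.6% of all gene values did). Counts of 0 of 7 are near these shares. The differences of the 7 ranged from -0.06 to 0.11.

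In OAZ2, the second broadly expressed antizyme gene, the range was -0.21 to 0.32 in low RFI pigs and -0.21 to 0.32 in high RFI pigs, with medians of -0.02 and 0.01. The difference was -0.04 (SE 0.05, FC -1.03), with an adjusted P of 0.91 in limma. In AZIN1 the values of low RFI pigs ran from 0.25 to 0.79 with a median of 0.49, and those of high RFI pigs from 0.20 to 0.90 with a median of 0.57. The groups overlapped almost fully. The 6 retained AZIN1 spots carried 5 sequences, as A_72_P510411 and O8815 held the same 60 bases. All 6 had a small negative difference, between -0.09 and -0.03. The difference of the gene value was -0.06 (SE 0.05, FC -1.04), with an adjusted P of 0.80 in limma. Its 95% interval, from -0.15 to 0.03, bounds the size of a difference that these pigs could hide.

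**Figure D2:**
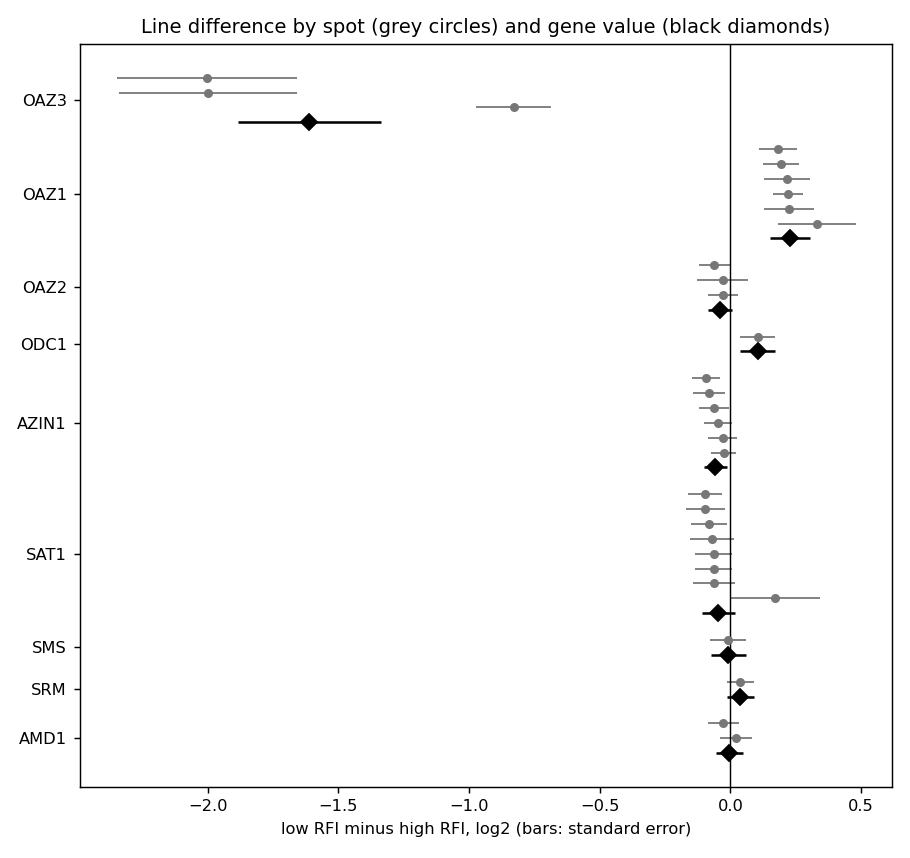
Difference between the lines, low RFI minus high RFI on the log2 scale, for each of 31 retained spots (grey circles) and for the gene values (black diamonds) of the 9 members. Bars are standard errors over 48 pigs. The 3 OAZ3 spots lie between -2.0 and -0.83 and the 6 OAZ1 spots between 0.18 and 0.33, while the gene values of the other 7 members lie between -0.06 and 0.10.

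None of the 5 enzymes of synthesis and acetylation was called between the lines. ODC1, the target of the antizymes, was read by a single spot. Its values in low RFI pigs ran from 4.99 to 5.69 with a median of 5.31, and in high RFI pigs from 4.77 to 5.90 with a median of 5.18. The difference was 0.10 (SE 0.07, FC 1.07), with 17 of 24 low RFI pigs above the high RFI median, a positive sign on 6 of 6 slides and an adjusted P of 0.67 in limma. Its 95% interval was -0.03 to 0.24. Adding the retained spot that carries an ODC1 accession under another name gave 0.10 (SE 0.06, adjusted P of 0.67).

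For SAT1 the values ran from 3.39 to 4.11 with a median of 3.82 in low RFI pigs, and from 3.47 to 4.46 with a median of 3.82 in high RFI pigs. The difference was -0.05 (SE 0.06, FC -1.03), with an adjusted P of 0.95. Of the 8 SAT1 spots, 7 had a difference between -0.10 and -0.06. The eighth, O8826, gave 0.17 (SE 0.17), with a 95% interval of -0.17 to 0.51 that takes in the values of the other spots, and none of the 8 passed. SRM had a difference of 0.04 (SE 0.05), AMD1 of -0.0036 (SE 0.05) and SMS of -0.01 (SE 0.07), with adjusted P of 0.95, 0.99 and 0.99 in limma. Their 95% intervals were -0.07 to 0.14 for SRM, -0.11 to 0.10 for AMD1 and -0.15 to 0.13 for SMS. The lines overlapped almost wholly in these genes. In SRM, 13 of 24 low RFI pigs were above the high RFI median, in AMD1 13 and in SMS 12.

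**Figure D3:**
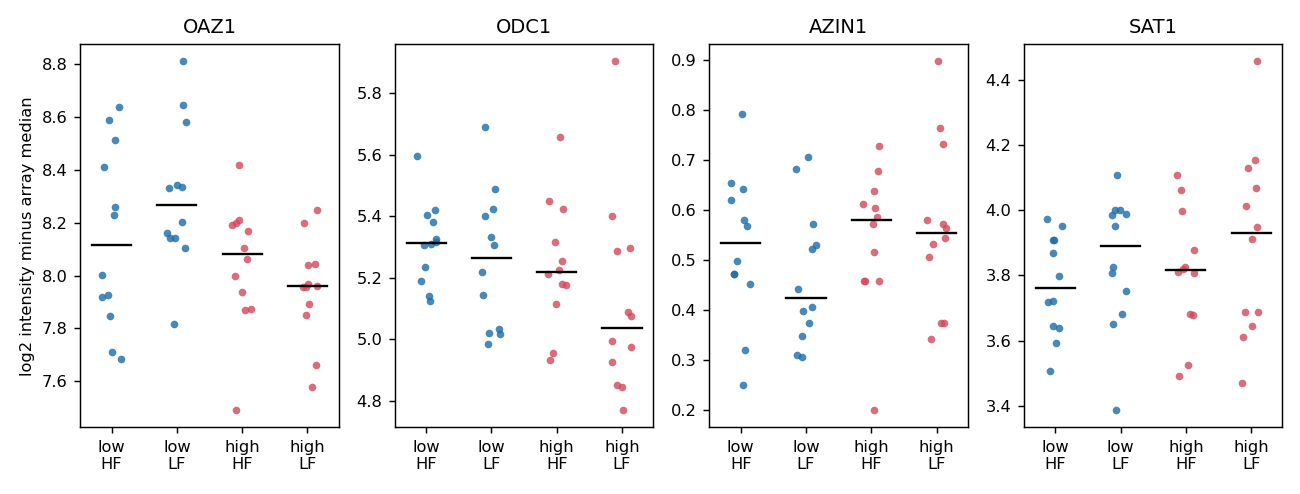
Level of OAZ1, ODC1, AZIN1 and SAT1 in each pig, as log2 intensity minus the array median, by line (low or high RFI) and diet (HF or LF). Each point is 1 pig (12 per group) and each bar a group median. No gap between bands is seen, and the groups overlap in each gene.

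Counted together, 0 of the 8 members other than OAZ3 were called for line at an adjusted P under 0.05, where 2.77% of all 27742 gene values were called, and 1 of 8 (OAZ1) had an unadjusted P under 0.05, where 11.6% of all gene values did. A count of 0 of 8 is near that background. Of the 8, 3 had positive and 5 had negative differences, with a median of -0.01 compared with 0.02 over all gene values. Of their 28 spots, 1 was called and 6 had an unadjusted P under 0.05, against 2.77% and 12% of all spots, and the 6 were all OAZ1 spots. For diet, 0 of 9 members were called (0% of all gene values) and 0 had an unadjusted P under 0.05 (1.61% of all gene values), with differences from -0.08 to 0.09. For the interaction 0 of 9 members were called (0% of all gene values) and 0 had an unadjusted P under 0.05 (2.24% of all gene values), the lowest unadjusted P being 0.10. The analysis of variance of each gene, at the same adjusted P under 0.05, also called none of the 8 for line and none of the 9 for diet or interaction. At the looser criterion of the methods, an unadjusted P under 0.01 in that analysis and an FC over 1.1 in size, 1 of the 8 (OAZ1, P of 0.0049) passed for line, as did 5.43% of all gene values.

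The probes of the members also differed in short letters known from messenger ends. The letters AATAAA, the common signal near the end of a messenger, were in 2 of 31 member spots (OAZ1 A_72_P628552 and OAZ2 O5795), and in 12% of all retained probes of 60 bases. The reverse complement, TTTATT, was in 3 of 31, namely the only spots of ODC1 and of SMS and the spot A_72_P248097 of AMD1, and in 4.34% of all retained probes. Both are matches of letters on the probe as written, and whether a probe reads the messenger or the opposite strand was not tested.

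Whether OAZ3 and the other members varied together from pig to pig was examined within a line and band, because the OAZ3 values fell into separate bands, so that no correlation was tested across bands. Of 24 relations, 4 had an adjusted permutation P under 0.05, and all 4 were among the 16 low RFI pigs of the lower band. There Pearson's r with OAZ3 was -0.86 for AMD1 (Spearman's rho -0.82), -0.84 for AZIN1 (rho -0.85), -0.76 for SMS (rho -0.72) and 0.73 for OAZ1 (rho 0.80). The adjusted permutation P values were 0.00048, 0.00048, 0.0042 and 0.0044, two-sided with 100000 resamples, and those of rho were 0.0019, 0.0019, 0.013 and 0.0028. Without the 2 pigs farthest from the OAZ3 median, r was -0.75, -0.73, -0.56 and 0.64. In the same pigs OAZ3 was related to the median signal over background of the array, with r = -0.64 (rho -0.67, adjusted permutation P of 0.017 and 0.016 over 3 relations, r = -0.57 without the 2 farthest pigs). With the background-corrected signal 0 of the 24 relations passed, and with normexp and quantile normalization 0 of 24 passed. Once diet and slide means were removed, 8 of the 16 relations that could be fitted passed. That permutation did not allow for the means fitted to these same pigs, so its P values tend to be too small. The 8 of 16 therefore cannot be compared with the 4 of 24. The part of the array background in the 4 relations was not tested beyond these values. The median signal over background was alike in the lines, at 10.92 in low RFI (range 5.91 to 14.8) and 10.99 in high RFI (range 7.80 to 15.97).

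No relation with OAZ3 passed in the upper band. In the 22 high RFI pigs r ranged from -0.41 for SRM (rho -0.33) to 0.28 for SAT1 (rho 0.29), with adjusted permutation P of 0.17 and 0.41. In the 8 low RFI pigs AZIN1 had r = 0.78 (rho 0.74) and SMS r = 0.74 (rho 0.76), both with an adjusted exact permutation P of 0.13. For AZIN1 and SMS the sign in these 8 pigs was opposite to that in the 16 pigs of the lower band.

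**Figure D4:**
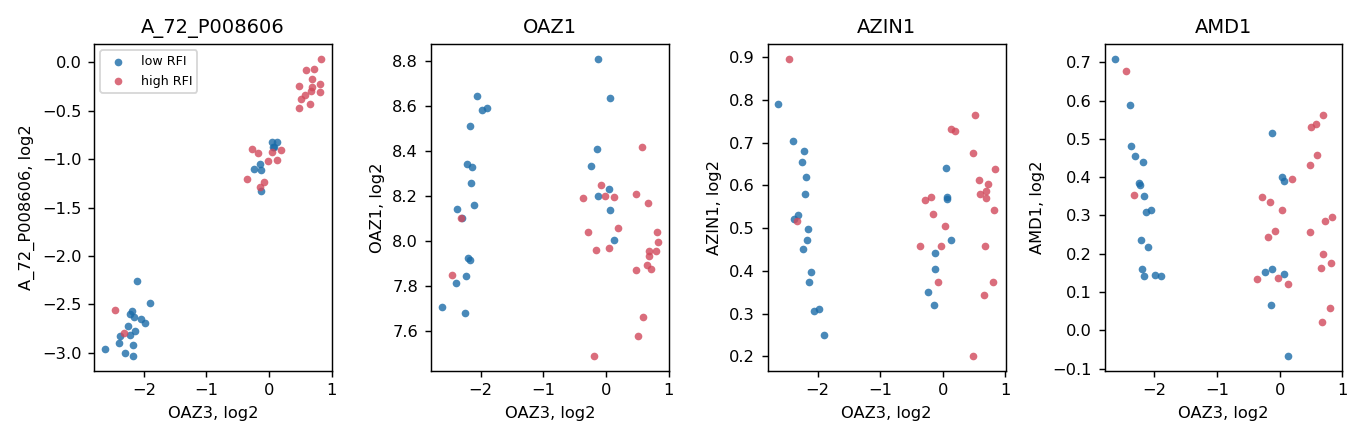
Level of the unnamed probe A_72_P008606, OAZ1, AZIN1 and AMD1 (vertical axes) against OAZ3 (horizontal axis) in each of 48 pigs, all as log2 intensity minus the array median, with low RFI pigs in blue and high RFI pigs in red. A_72_P008606 follows OAZ3 across all 3 bands, and the levels of the other genes overlap between the bands.

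The gene values most like OAZ3 were sought over 48 pigs after the 4 group means were removed, as a description with no test, and pigs shared slides and the array background. The unnamed probe A_72_P008606 had r = 0.98, the highest of all. The 18 pigs lowest in OAZ3 were the 18 lowest in this probe, and its next gap again left 13 high RFI pigs above. Its median was -2.62 in low RFI and -0.45 in high RFI pigs, a difference of -1.41 (SE 0.23, FC -2.66), which is a description because the probe was chosen by its likeness to OAZ3. It was well above background on 20 low RFI and 24 high RFI arrays. A second probe with no gene name, TC558786, followed with r = 0.65 and a line difference of -0.36 (SE 0.08). Among named genes the highest were TUFT1 (r = 0.49), LOC100512533 (0.45), ACACB (0.45), NAT14 (0.44), TMEM25 (0.44), KY (0.43), LOC100157063 (0.42), S100A10 (0.42), SMYD4 (0.42) and CYP4F2 (0.42). The lowest were HYOU1 (r = -0.52), CPSF7 (-0.52), PRR14L (-0.48), DNM1P17 (-0.48) and LOC100524826 (-0.47). The other members ran from AMD1 with r = -0.37 to OAZ1 with r = 0.22, and none was among these named genes.

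The genes next to OAZ3 were taken from the order of the RefSeq table of assembly Sscrofa11.1, without coordinates, since the files name no build. Of the 5 genes on each side, MRPL9, CELF3 and SNX27 were measured, all on the same side. MRPL9, which encodes a mitochondrial ribosomal protein and overlaps OAZ3 in that table, had a median of 2.73 in low RFI (range 2.32 to 3.101) and of 2.49 in high RFI pigs (range 2.18 to 3.103). The lines overlapped, with 21 of 24 low RFI pigs above the high RFI median. MRPL9 was higher by 0.21 (SE 0.06, FC 1.16) in low RFI pigs, opposite to OAZ3, with an adjusted P of 0.046 in limma. This call is close to the threshold. It was lost in 34 of the 48 fits that left out 1 pig (adjusted P from 0.011 to 0.076), and also with all non-control spots (0.076), without the pig of the rebuilt column (0.064) and with the brightest spot (0.13). CELF3, an RNA-binding protein gene, had a difference of 0.12 (SE 0.10) and SNX27, a sorting nexin gene, of 0.02 (SE 0.05), and neither was called. TUFT1, the sixth gene on that side, had a difference of -0.05 (SE 0.08) with an adjusted P of 0.97.

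The wider polyamine pathway was read from a list of 41 names, of which 29 were measured. Besides OAZ3, 0 of 28 measured genes were called for line (background 2.77%), and 6 of 28 had an unadjusted P under 0.05 (background 11.6%). The criterion of the methods was passed by 3 of the 28 (OAZ1, MAT2A and NQO1, background 5.43%). Of the 28, 16 had a positive difference, and the median of the 28 was 0.03 compared with 0.02 over all gene values. None of the 29 was called for diet or interaction, and neither was any other gene value (0% for both). An unadjusted P under 0.05 was found for 0 of the 29 for diet (background 1.61%) and 1 for interaction (background 2.24%).

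By role, the closest to the threshold was MAT2A, which encodes the methionine adenosyltransferase of most tissues and so supplies the donor that AMD1 uses. Its difference was 0.16 (SE 0.05), with 19 of 24 low RFI pigs above the high RFI median and an adjusted P of 0.097 in limma. It passed with the 75th percentile scaling (0.042), normexp and quantile (0.044), the replicate block (0.040) and without low RFI LF replicate 7 (0.048), but with the brightest of its 2 spots the difference was only 0.05 (SE 0.05, adjusted P of 0.91). APIP, an enzyme of methionine salvage from methylthioadenosine, had 0.16 (SE 0.07, adjusted P of 0.27). NQO1, a quinone reductase known to bind ornithine decarboxylase and slow its breakdown, had 0.35 (SE 0.12, adjusted P of 0.12), and its value moved with the choice of spot, to 0.55 (SE 0.16, adjusted P of 0.044) with the median of its 3 spots and to 0.14 (SE 0.22, adjusted P of 0.97) with the brightest. MYC, a transcription factor that acts on ODC1, had -0.0040 (SE 0.06). ARG2, the mitochondrial arginase that makes ornithine, had -0.20 (SE 0.08, adjusted P of 0.27) and an interaction of -0.40 with an unadjusted P of 0.023 and an adjusted P of 0.89, whereas ARG1 had 0.07 (SE 0.18).

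The 4 measured genes of catabolism lay between -0.05 and 0.08, among them SAT2, the oxidase genes SMOX and PAOX, and SAT1. Of the 4 transport genes, SLC3A2, the heavy chain shared by several amino acid exchangers, had 0.09 (SE 0.04, adjusted P of 0.34), and the others, ATP13A2, SLC7A1 and SLC7A2, lay between -0.07 and 0.06. EIF5A, the factor that carries hypusine made from spermidine, had 0.01 (SE 0.05), and DHPS, the enzyme of its first step, had 0.06 (SE 0.04). No retained spot bore the name of DOHH, the enzyme of the second step, or of the related factor EIF5A2.

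**Figure D5:**
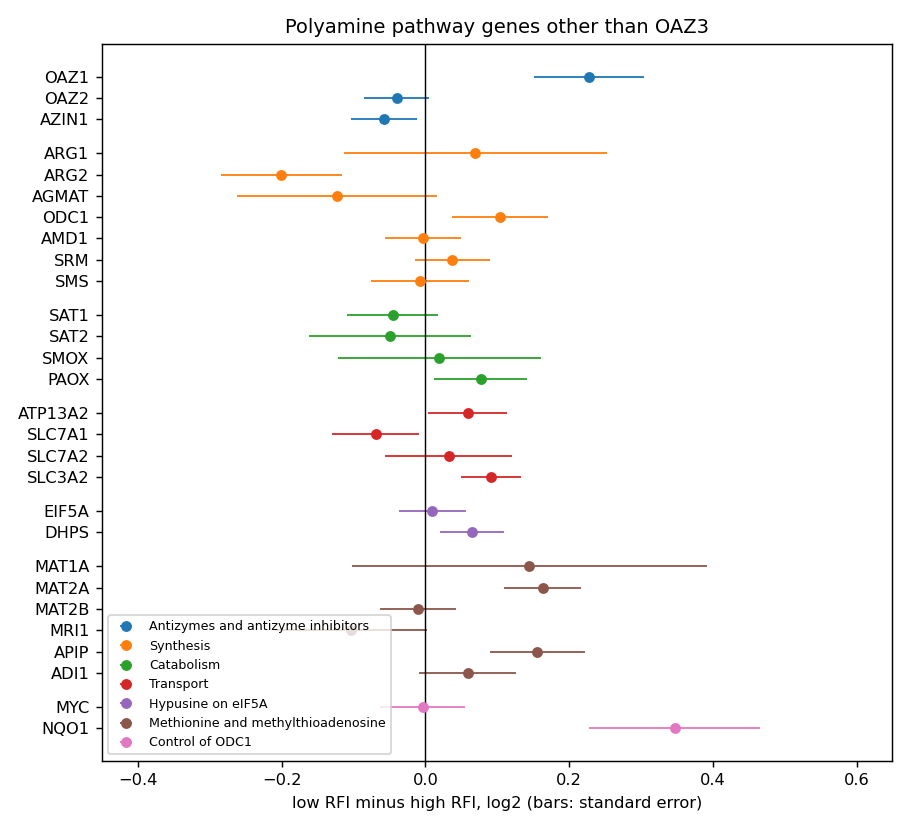
Difference between the lines, low RFI minus high RFI on the log2 scale, for the 28 measured genes of the polyamine pathway list other than OAZ3, coloured by role. Points are gene values and bars are standard errors over 48 pigs. The values lie between -0.20 (ARG2) and 0.35 (NQO1), and none was called.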

How the data were processed

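Whole blood RNA of 48 pigs (12 per line and diet) was read on single-colour arrays. The authors deposited scanner intensity files with quality calls, and a table of log2 values of 37113 retained spots, filtered on background, diameter, saturation and uniformity and processed in R 3.0.2. On 47 arrays each of these values was recovered, within 1e-06, by centring the log2-transformed median pixel intensity on the array median, with no background subtracted. The column of high RFI HF replicate 1 repeated 1 value (2.71) in 37090 entries and was rebuilt from its scanner file. The quality calls that the scanner software wrote (per the file headers, other than intensity) were used to count arrays well above background, which held for 97.4% to 99.9% of retained spots per array. Signal over background of the arrays was 5.91 to 15.97, no retained spot was saturated, and the number of arrays limits the precision.

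Line, diet and their interaction were fitted to all spots and all gene values with limma 3.58.1 in R 4.3.3, with BH adjustment over the whole table and a threshold of 0.05. The procedure was tested on simulated data. Correlations used permutation in Python 3.11.15 (numpy 2.4.6, scipy 1.17.1). The gene name GI marks 819 spots and was treated as no name. Named genes were the members, the pathway list, the 5 neighbours on each side, and the 10 named genes most and 5 least like OAZ3, where accession or probe names were passed over, and TUFT1 was also read as the sixth neighbour. Single lists and spots beyond this were named after their values were seen. The members and lists were chosen with earlier results of these data known. NK and platelet markers were read as well, and 0 of 5 and 0 of 2 measured ones were called for line by limma, where 2 (KLRK1 at 0.28 and NCR1 at -0.18) and 0 had an unadjusted P under 0.05, against 2.77% called and 11.6% with such a P over all gene values. The qPCR and blood counts were not analysed here. Some marker genes are not reported here.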

Additional observations from a re-analysis of the deposited data

Results flagged for a closer look

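Spots of 2 members outside the retained table carried signal, which is why they are given here. AZIN1 spot A_72_P618526 was well above background on 48 of 48 arrays. The mean was 0.80 (SD 0.17) over 24 low RFI pigs and 0.82 (SD 0.20) over 24 high RFI pigs, which differ by -0.02, less than the spread between pigs. SMS spot O9162 was well above background on 24 of 48 arrays. Here the mean was -2.84 (SD 0.20) over 24 low RFI pigs and -2.82 (SD 0.25) over 24 high RFI pigs, which also differ by -0.02. No test was run on these spots, and groups of 12 pigs were not searched for single outlying pigs.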

How the results depend on the processing

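Under 14 alternatives the count of called members other than OAZ3 stayed at 0 for line, and that of all 9 members at 0 for diet and interaction, also in each of 48 fits without 1 pig. The OAZ3 line difference ranged from -2.09 to -1.39 over the alternatives and from -1.73 to -1.56 without single pigs. With the replicate number as a block 1496 spots were called for line instead of 1027, OAZ3 stayed at -1.61 and no member was called, but 1 pathway gene (MAT2A) was. Deviations of same-numbered samples of different groups had correlations from -0.60 to 0.71 with a median of 0.20, over 0.1 in 44 of 72 pairs, compared with a median of 0.09 (33 of 72) for other numbers on the same slide and -0.04 (268 of 720) on other slides. Not every pair was over 0.1, so the block was kept as an alternative. Of 48 samples, 15 correlated best with their own number. Samples of the same number also shared a slide, and slide means were not removed, so pairing and slide cannot be told apart by this count. The labels do not state a pairing. Without single pigs 901 to 1097 spots were called for line, 0 to 1 pathway genes and 0 to 1 neighbours. The count of pathway genes was also 1 with the 75th percentile, with normexp and quantile, and with the median of spots. The neighbour call (1, MRPL9) became 0 with all non-control spots, the column as deposited, without the pig of that column, and with the brightest spot. The relations that passed, 4 of 24, became 0 with the background-corrected signal and 0 with normexp and quantile. Once diet and slide means were removed, 8 of 16 passed, where the 8 low RFI pigs of the upper band were too few to be fitted. That permutation did not allow for the fitted means, so the 8 of 16 cannot be compared with the 4 of 24.

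With the column as deposited, whose repeated value stands for the data of 1 pig, 265 spots were called for line, the OAZ1 line difference was 0.46 (adjusted P of 0.82) and these signs turned: SAT1 line 0.00025, SRM line -0.0031, diet OAZ2 0.074, ODC1 -0.0028, AMD1 0.068, interaction OAZ1 0.20, ODC1 0.12, AZIN1 -0.10, SMS -0.015, AMD1 -0.17. Values near 0 also turned sign elsewhere. AMD1 line was 0.014 (background-corrected, array median), 0.0020 (75th percentile), 0.011 (normexp and quantile), 0.020 (brightest spot) and 0.0025 (spots by accession). With the brightest spot, OAZ3 diet was -0.0051, AZIN1 diet -0.016, and the interaction 0.019 for OAZ3 and 0.011 for OAZ2. OAZ3 interaction was 0.044 (array median), 0.028 (75th percentile), 0.024 (normexp and quantile) and 0.0059 (median of spots). OAZ2 interaction was 0.011 (normexp and quantile), SAT1 interaction -0.029 (array median) and -0.045 (75th percentile), and AMD1 interaction -0.021 (spots by accession). Without single pigs, values ranged across 0 for OAZ3 diet (-0.078 to 0.15) and interaction (-0.23 to 0.23), OAZ2 interaction (-0.026 to 0.023), SAT1 interaction (-0.036 to 0.053), SMS line (-0.028 to 0.018) and diet (-0.0095 to 0.036), and AMD1 line (-0.023 to 0.013). None of these passed, and the cause was not tested.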
